A study of Mus musculus with 2 samples.

Results

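The 10 genes described here, Slpi, Ly6d, Prg2, Vpreb3, Cacna1e, Nrg2, Ly6c2, Ccdc88a, Eaf2 and Cd79a, differ in level from one plasma cell of the mouse small intestine to the next. They are 10 of the 32285 genes in the count matrices, and all 10 were found by symbol in both. They were chosen because their counts varied among these same plasma cells, so that variation is given as a description, with no test. The cells came from the lamina propria, the connective tissue under the gut epithelium, in a study of Aster-A (gene Gramd1a), a protein that carries sterols between membranes. The CD4-Cre library held cells of CD4-Cre; Aster-A F/F mice, in which the Cre recombinase is driven by the Cd4 promoter and removes the floxed gene in T lineage cells. The F/F library held cells of Aster-A F/F littermates, with the same floxed alleles and no Cre. Each library was 1 pool of 3 female mice aged 10 to 12 weeks, fasted for 16 h and given olive oil by gavage 2 h before collection. From each mouse, 100000 live cells positive for CD45 and negative for EPCAM, Ter119 and CD31 were sorted. Plasma cells do not use the Cd4 promoter, and Gramd1a stood at 20.3 UMIs per 1000000 UMIs outside immunoglobulin genes in CD4-Cre plasma cells, against 19.6 in F/F plasma cells. With 1 pool per genotype there is no test between genotypes, and the 3 mice of a pool cannot be told apart. Ratios and shares below carry exact 95% intervals that cover counting error only.

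Plasma cells are antibody factories: a B cell that has been activated shuts down much of its surface signalling apparatus, expands its endoplasmic reticulum and secretes one antibody class. In the gut most of them make IgA, which is joined into dimers by the J chain (gene Jchain) and carried across the epithelium. A few of the genes described here belong to the B lineage. Cd79a encodes Ig-alpha, the signalling chain of the B cell receptor, and Vpreb3 a relative of the surrogate light chain that assists receptor assembly in precursor B cells. Eaf2 encodes a partner of the ELL elongation factors, of which ELL2 favours the secreted form of antibody mRNA in plasma cells. Ly6d and Ly6c2 encode small lipid-anchored surface proteins of the Ly6 family; Ly6d marks B-committed progenitors in mouse marrow and Ly6c2 is the Ly6C antigen of monocytes. Slpi, the secretory leukocyte protease inhibitor, blocks neutrophil elastase, and Prg2 encodes the major basic protein of eosinophil granules. Cacna1e encodes the pore of the R-type voltage-gated calcium channel, Nrg2 a neuregulin ligand of ErbB receptors, and Ccdc88a the actin-binding protein girdin.

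Plasma cells were defined by immunoglobulin transcripts, at least 20% of the UMIs of a barcode. A UMI is a molecular tag counted once per captured RNA molecule. This gave 7746 of 12526 kept cells in the CD4-Cre library and 8843 of 12594 in the F/F library, with medians of 17411 and 17438 UMIs per plasma cell. At least 3 of 8 plasma cell markers (Xbp1, Jchain, Mzb1, Sdc1, Tnfrsf17, Derl3, Prdm1 and Irf4) were detected in 99.8% of CD4-Cre and 99.9% of F/F plasma cells. Levels are UMIs per 1000000 UMIs outside immunoglobulin genes (CPM), and detection shares were taken after each cell was thinned to 1500 such UMIs, which left out 117 CD4-Cre and 126 F/F cells. Markers of T cells reached 3 or more in 485 CD4-Cre and 389 F/F plasma cells, those of macrophages in 57 and 107, and those of B cells in 22 and 11. Pancreatic enzyme RNA made up at least 1% of the UMIs outside immunoglobulin genes in 0 CD4-Cre and 249 F/F plasma cells, and stood at 3.60 and 837 CPM. Gastric RNA (Tff2, Gkn3, Agr2, Muc6 and Gkn1) went the other way, at 161 CPM in CD4-Cre and 21.9 in F/F plasma cells. Before thinning, 71.7% and 15.1% of plasma cells held a UMI of it. The libraries shared 47 cell barcodes.

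Promoter sequences show what stands before genes whose odds ratios of joint detection were above 1 in both libraries (Cd79a with Slpi, and the long genes Cacna1e with Ccdc88a) and before Vpreb3, the one with an octamer. Each window runs from 250 bases before to 50 bases after the start annotated by RefSeq on GRCm38.p6, in the direction of the gene. The RefSeq starts of Slpi, Vpreb3 and Cacna1e lie well inside the gene spans given below. Their windows therefore do not cover the upstream ends of those spans. Windows of 7 of the 10 genes were used. The windows are chr7:24897247-24897546 on the plus strand for Cd79a, chr2:164356458-164356757 on the minus strand for Slpi, chr10:75948050-75948349 on the plus strand for Vpreb3, chr1:154725871-154726170 on the minus strand for Cacna1e and chr11:29373408-29373707 on the plus strand for Ccdc88a.
Cd79a: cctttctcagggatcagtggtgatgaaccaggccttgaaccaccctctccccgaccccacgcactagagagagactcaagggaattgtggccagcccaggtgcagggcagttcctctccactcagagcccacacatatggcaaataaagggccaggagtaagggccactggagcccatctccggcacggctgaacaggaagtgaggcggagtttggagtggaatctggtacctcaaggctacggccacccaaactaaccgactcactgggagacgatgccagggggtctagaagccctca
Slpi: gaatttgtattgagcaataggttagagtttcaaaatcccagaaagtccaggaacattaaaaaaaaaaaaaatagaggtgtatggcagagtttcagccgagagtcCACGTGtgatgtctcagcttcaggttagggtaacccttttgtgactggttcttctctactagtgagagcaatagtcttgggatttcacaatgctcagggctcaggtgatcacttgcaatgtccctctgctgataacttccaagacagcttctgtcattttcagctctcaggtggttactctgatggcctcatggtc
Vpreb3: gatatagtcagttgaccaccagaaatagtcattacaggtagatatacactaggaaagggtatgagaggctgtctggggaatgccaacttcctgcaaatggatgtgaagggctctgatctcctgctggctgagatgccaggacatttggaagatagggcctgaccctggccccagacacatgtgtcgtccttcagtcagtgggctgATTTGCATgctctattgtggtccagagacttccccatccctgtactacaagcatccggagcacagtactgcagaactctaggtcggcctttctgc
Cacna1e: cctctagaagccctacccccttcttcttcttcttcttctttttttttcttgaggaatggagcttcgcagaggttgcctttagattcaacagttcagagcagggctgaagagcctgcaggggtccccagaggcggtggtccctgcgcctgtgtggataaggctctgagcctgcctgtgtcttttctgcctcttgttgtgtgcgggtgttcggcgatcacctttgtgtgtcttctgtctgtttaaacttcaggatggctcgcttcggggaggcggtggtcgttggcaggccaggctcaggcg
Ccdc88a: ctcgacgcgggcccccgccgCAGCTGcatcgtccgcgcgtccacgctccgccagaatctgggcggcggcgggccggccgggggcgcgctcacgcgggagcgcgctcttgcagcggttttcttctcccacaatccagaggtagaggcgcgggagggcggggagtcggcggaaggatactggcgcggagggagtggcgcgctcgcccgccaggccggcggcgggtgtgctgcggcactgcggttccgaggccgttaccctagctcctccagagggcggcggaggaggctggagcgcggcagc
Capitals mark matches on either strand to any of 6 motifs. These were the octamer ATGCAAAT, an XBP1 type site TGACGTG (2.01% of all windows), the E-boxes CACGTG and CAGCTG, and, by name, an EBF type site (0.904%) and an ETS-IRF composite (2.72%). No printed window held more than 1 match. The Vpreb3 window held the octamer on its opposite strand, beginning 45 bases before the start; 1.74% of the 32851 promoter windows of the same length held one. The Slpi window held CACGTG (7.15% of all windows), and the Ccdc88a window held CAGCTG (16.3% of all windows). Both Ly6c2 windows and 1 of the 3 Eaf2 windows, which are not printed, also held CAGCTG. The Cd79a and Cacna1e windows held none of the 6, which says only that these letters are not in those windows. The Ccdc88a window was 75.3% G and C, against 43.3% in the Slpi window.

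The genes fell into short and long ones. On GRCm38, Ly6d spans 1.56 kb (chr15:74762056-74763620), Prg2 3.17 kb (chr2:84980461-84983632), Ly6c2 3.81 kb (chr15:75108158-75111970), Cd79a 4.82 kb (chr7:24897381-24902197), Vpreb3 6.60 kb (chr10:75943057-75949657) and Slpi, with its longest transcripts, 35.03 kb (chr2:164354070-164389095). Eaf2 spans 82.1 kb (chr16:36792884-36875003), Ccdc88a 137 kb (chr11:29373658-29510808), Nrg2 180 kb (chr18:36017652-36197380) and Cacna1e 494 kb (chr1:154390731-154884501), against a median of 12.3 kb over the 32158 genes matched to the annotation. Cacna1e was longer than 99.3% of them. Neither the labels nor the headers say whether reads from introns were counted; that matters most for the long genes. Nrg2, Eaf2, Slpi and Vpreb3 overlap other annotated genes, and the strand setting of the counting is likewise unknown, so their counts could include the partner.

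Every one of the 10 genes was present in both libraries at a similar level. The spread differed most for Cd79a, with a variance of 2.16 times the mean in thinned CD4-Cre cells and 1.60 times in F/F cells. Among the B lineage genes, Cd79a had 766 CPM in CD4-Cre and 712 in F/F plasma cells and was detected in 64.9% and 63.6% of thinned cells. Vpreb3 had 368 in CD4-Cre and 417 in F/F plasma cells, and was detected in 37.9% and 40.4%. Eaf2 had 687 and 679, with detection in 59.1% and 59.4%. Eaf2 had the lowest variance over mean of the 10, at 1.35 in thinned CD4-Cre cells and 1.29 in F/F cells. Counts that vary by sampling alone have a value near 1.

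Slpi, Ly6d and Ly6c2 had far higher variances over their means. Slpi had 1715 CPM in CD4-Cre and 1652 in F/F plasma cells, yet 42.1% and 43.7% of thinned cells held none while 22.7% and 21.8% held 5 or more. Its variance was 8.39 times the mean in CD4-Cre cells, rank 7 of 1905 genes, and 7.78 times in F/F cells, rank 7 of 1848. Ly6d had 1727 and 1702 CPM, with a variance of 4.29 and 4.01 times the mean. Ly6c2 had 684 and 609 CPM, with a variance of 5.83 and 4.78 times the mean, and the tenth of cells with most Ly6c2 held 60.2% and 59.5% of its UMIs. Prg2 had 249 and 255 CPM, with a variance of 1.93 and 2.00 times the mean, and 26.8% and 27.3% of thinned cells held one. The highest single cells carried 401 CD4-Cre and 480 F/F UMIs of Slpi, 253 and 354 of Ly6d, and 69 and 76 of Prg2.

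The long genes for channel, ligand and cytoskeletal proteins had lower levels and variances closer to their means. Cacna1e had 397 CPM in CD4-Cre and 375 in F/F plasma cells, Nrg2 had 224 and 221, and Ccdc88a had 311 and 287. Their variances were between 1.43 and 1.72 times the mean, and at least 60.1% of thinned cells held none of the gene in question. The tenth of cells with most of a gene held 46.9% and 46.4% of Cacna1e UMIs, 50.2% and 51.4% of Ccdc88a and 55.4% and 54.9% of Nrg2. For Ly6d it held 40.9% and 39.1%, and for Slpi 49.1% and 49.4%. Both measures depend on the level of a gene, so evenness was not ranked between genes of unlike level.

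**Figure D1:**
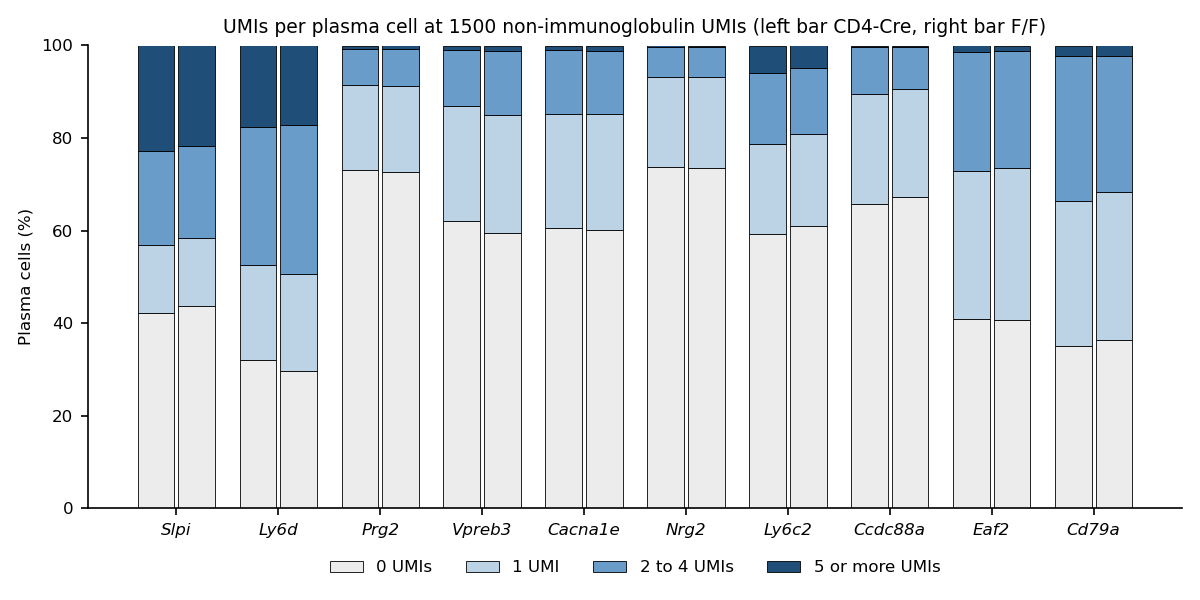
Share of plasma cells (%, vertical axis) with 0, 1, 2 to 4, and 5 or more UMIs of each gene after thinning to 1500 UMIs outside immunoglobulin genes, CD4-Cre as left bar and F/F as right bar. Slpi and Ly6d have the deepest top classes, at 22.7% and 17.7% of CD4-Cre cells, and the 2 bars of each gene are close to each other.

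Of the cells outside plasma cells, only those with T cell, macrophage or B cell markers were examined. Among these the genes were found in few cells, with exceptions in B cells and macrophages. In CD4-Cre and F/F cells with T cell markers and under 20% immunoglobulin UMIs (3025 and 1868 cells, medians of 3508 and 3754 UMIs outside immunoglobulin genes), between 1.29% and 9.10% of thinned cells held a UMI of each gene. The matching medians in plasma cells were 7938 and 8131 such UMIs. Barcodes with 150 to 350 UMIs, which hold free RNA, carried Slpi at 1292 CPM in the CD4-Cre library and 1190 in the F/F library. The T cell shares are used below as the level for comparison; their source was not tested. Cells with B cell markers (106 and 46) held Cd79a in 76.9% and 86.7% of thinned cells, Vpreb3 in 51.0% and 46.7%, Ly6d in 26.9% and 51.1% and Eaf2 in 20.2% and 26.7%. In the same B cells Slpi reached 6.73% and 4.44%, under the T cell shares of 7.99% and 7.37%. Cells with macrophage markers (302 and 467) held Ccdc88a in 18.4% and 21.7% and Nrg2 in 8.46% and 9.68%, above the T cell shares of 1.76% and 2.37% for Ccdc88a and 1.57% and 2.64% for Nrg2.

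Prg2 is best known from eosinophils, so the eosinophil markers are given beside it. Among CD4-Cre plasma cells, the 7 markers Epx, Prg3, Siglecf, Ccr3, Ear1, Ear2 and Ear6 summed to 112 UMIs, and Epx, Ear1 and Ear6 stood at 0. Among F/F plasma cells they summed to 252 UMIs, with Epx at 1 and Ear6 at 0. Prg2 itself had 17481 UMIs in CD4-Cre and 21265 in F/F plasma cells. Prg3, its relative downstream on the same strand, had 88 and 140 UMIs. Ly6c1, the close relative of Ly6c2, had 48 and 57 UMIs against 48091 and 50839 for Ly6c2. How reads that both copies match equally were counted is not known, and their part was not tested.

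No pair of the 10 genes was detected together or apart by as much as the limits used, an odds ratio of at least 2 for joint and at most 0.5 for exclusive detection. The odds ratio, combined over the libraries, ran from 0.743 to 1.82 over the 45 pairs, with 29 above 1, 15 below 1 and Cacna1e with Ly6c2 at 1. In 41 of 45 pairs it lay on the same side of 1 in both libraries. A thinned plasma cell held 4.55 ± 1.66 of the 10 genes in the CD4-Cre library (SD over 7629 cells) and 4.55 ± 1.64 in the F/F library (SD over 8717 cells). All 10 were found together in 5 CD4-Cre and 2 F/F cells, and none in 22 and 36.

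Prg2 and Cd79a had the highest odds ratio over both libraries, 1.82, with 1.90 in CD4-Cre and 1.76 in F/F cells. Among CD4-Cre cells, 1532 of 7629 (20.1%) held both, 6.71% held Prg2 alone and 44.8% held Cd79a alone, where the product of the single shares is 17.4%. Among F/F cells, 1727 of 8717 (19.8%) held both, 7.47% held Prg2 alone and 43.8% held Cd79a alone, where the product is 17.3%. Slpi and Cd79a followed, at 1.91 in CD4-Cre and 1.69 in F/F cells, with both genes in 41.2% and 38.8% of cells. Both values were lower at matched immunoglobulin share: within bands of that share, a comparison chosen after seeing the data, the odds ratio was 1.21 for Prg2 with Cd79a and 1.49 for Slpi with Cd79a.

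Among the long genes, Nrg2, Ccdc88a and Cacna1e had odds ratios above 1 with each other. Nrg2 and Ccdc88a had an odds ratio of 1.57 in each library, and 10.97% of CD4-Cre and 10.6% of F/F cells held both, where the products of the shares are 8.96% and 8.65%. Cacna1e had an odds ratio of 1.48 with Nrg2 and 1.37 with Ccdc88a over both libraries. Slpi with Ccdc88a stood at the same 1.37, and Eaf2, another long gene, at 1.09 to 1.20 with the 3. Malat1, an abundant nuclear RNA, moved with these genes: thinned cells with Cacna1e had 21137 Malat1 CPM and those without it 16943 in the CD4-Cre library, and 21597 with it and 16945 without it in the F/F library. Within strata of the Malat1 level, chosen after seeing the data, the odds ratio was 1.44 for Nrg2 with Ccdc88a and 1.29 for Cacna1e with Nrg2.

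Ly6d tended to be found apart from the long genes. Ly6d and Ccdc88a had the lowest odds ratio, at 0.720 in CD4-Cre and 0.766 in F/F cells. Both were held by 21.6% and 21.7% of cells, Ly6d alone by 46.3% and 48.5%, and Ccdc88a alone by 12.6% and 10.97%. Ly6d with Nrg2 stood at 0.823 and 0.745. Ly6d had odds ratios above 1 with Ly6c2 and Prg2, at 1.45 and 1.504 with Ly6c2 and 1.42 and 1.52 with Prg2. Slpi and Ly6d stood at 0.824 and 0.897, with both in 38.3% and 39.0% of cells against products of 39.3% and 39.5%.

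**Figure D2:**
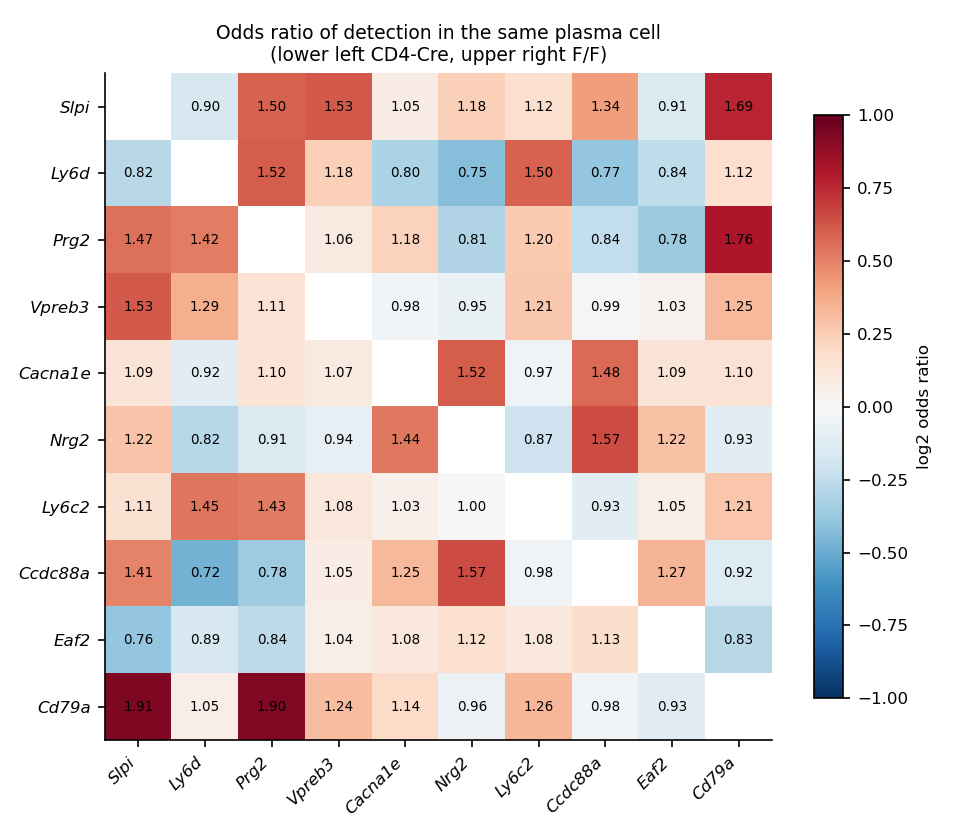
Odds ratio of detection in the same thinned plasma cell for each pair of genes, CD4-Cre in the lower left and F/F in the upper right; colour is the log2 odds ratio. Red squares join Cd79a to Slpi and Prg2, and Nrg2 to Ccdc88a and Cacna1e; the lowest value is Ly6d with Ccdc88a in CD4-Cre cells, at 0.72.

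By kind of cell, pairing was described with fewer cells. In cycling cells 36 of 45 odds ratios were above 1, with a median of 1.26, and in non-cycling cells 26 of 45, with a median of 1.03. The pair stayed on the same side of 1 in both kinds for 31 of 45 pairs. IgA cells, which make up most plasma cells, had a range of 0.744 to 1.80. In the 218 thinned IgG cells the values ran from 0.465 to 2.83. Slpi with Cd79a stood there above 2 in 95 CD4-Cre IgG cells and at 0.574 in 123 F/F IgG cells. The 32 IgM cells were too few for odds ratios.

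Cycling plasma cells had less of 6 of the 10 genes, by 1.5-fold or more, and the same 6 in each library. Cycling cells are those with at least 3 of 20 proliferation genes and at least 5 UMIs over them, 899 of 7746 (11.6%) in the CD4-Cre and 1073 of 8843 (12.1%) in the F/F library. Over all 12633 genes compared, 25.2% were past 1.5-fold in either direction and 12.4% were lower; in the CD4-Cre library alone 10.4% were lower and in the F/F library 12.3%. The median log2 ratio was -0.80 over the 10 genes and -0.01 over all genes.

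Prg2 differed most. In the CD4-Cre library it had 76.6 CPM in cycling and 297 in non-cycling cells, and in the F/F library 75.2 and 311. The ratio over both libraries was 0.249 (0.239 to 0.259). Slpi had 682 in cycling and 2007 in non-cycling cells of the CD4-Cre library, and 609 and 1977 in the F/F library, a ratio of 0.322 (0.318 to 0.326). Both the level and the share of cells were lower, since 35.7% of cycling and 59.9% of non-cycling cells held Slpi.

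Ly6c2 followed at 0.422 (0.413 to 0.430), Cd79a at 0.441 (0.433 to 0.449), Cacna1e at 0.532 (0.519 to 0.544) and Vpreb3 at 0.622 (0.608 to 0.636). Cd79a was held by 40.6% of cycling and 67.4% of non-cycling cells. Nrg2 at 0.726 and Ccdc88a at 0.766 were lower by less than 1.5-fold. Eaf2 hardly differed, at 0.956 (0.943 to 0.970). Ly6d was the one gene higher in cycling cells, with 1972 CPM in cycling and 1657 in non-cycling CD4-Cre cells and 1892 and 1643 in F/F cells, a ratio of 1.17 (1.16 to 1.18). A thinned cycling cell held 3.60 of the 10 genes in the CD4-Cre and 3.51 in the F/F library, and a non-cycling cell 4.68 and 4.70.

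Cycling cells also carried less antibody RNA. Of the cells with 20 to 35% immunoglobulin UMIs, 47.5% in the CD4-Cre and 46.5% in the F/F library were cycling, and of those with 50 to 60%, 2.93% and 2.17%. Within each of 3 bands of that share, the ratios of Slpi, Prg2, Cd79a, Vpreb3 and Ly6c2 were closer to 1 than over all plasma cells of the library, while in the lowest band those of Nrg2, Ccdc88a, Cacna1e, Eaf2 and Ly6d were further from 1. Cycling cells had less Slpi in every band of both libraries, with ratios of 0.613, 0.539 and 0.523 in the CD4-Cre library and 0.609, 0.492 and 0.371 in the F/F library, from the lowest band to the highest. Prg2 stayed between 0.529 and 0.723 in the CD4-Cre bands and between 0.527 and 0.693 in the F/F bands. For Cacna1e the ratio was 0.533, 0.738 and 1.07 in the CD4-Cre library and 0.489, 0.678 and 1.09 in the F/F library, so in cells with at least 50% immunoglobulin UMIs it was no longer lower in cycling cells. Cd79a kept to 0.745 to 0.784 in the CD4-Cre bands and 0.728 to 0.795 in the F/F bands, short of 1.5-fold. Vpreb3 was short of it too, at 0.808, 0.778 and 0.904 in the CD4-Cre bands and 0.880, 0.721 and 0.760 in the F/F bands. Ly6c2 stood at 0.754, 0.665 and 0.752 in the CD4-Cre bands and at 0.529, 0.661 and 0.980 in the F/F bands. Nrg2 stood at 0.595, 0.842 and 1.19 in the CD4-Cre bands and at 0.648, 0.837 and 1.13 in the F/F bands, and Ccdc88a at 0.725, 0.796 and 1.08 in the CD4-Cre bands and 0.668, 0.748 and 0.8995 in the F/F bands. Ly6d was higher in cycling cells in the bands under 50%, at 1.45 and 1.37 in the CD4-Cre and 1.26 and 1.44 in the F/F library, and stood at 0.870 and 1.01 above.

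Across all plasma cells the share of antibody RNA went with 3 of the genes in one direction. From the 20 to 35% band through the 35 to 50, 50 to 60 and 60 to 70% bands to the band above 70%, Prg2 in CD4-Cre cells stood at 48.8, 141, 299, 527 and 647 CPM. In F/F cells the same bands gave 52.1, 164, 356, 544 and 710. Cd79a climbed likewise, with 312, 581, 948, 1223 and 1447 in CD4-Cre cells and 314, 584, 925, 1171 and 1356 in F/F cells. Ly6c2 had 271, 511, 785, 1185 and 1511 in CD4-Cre cells and 285, 555, 781, 880 and 1116 in F/F cells. Depth outside immunoglobulin genes moved with the bands, with medians of 12567 UMIs in the lowest and 6561 in the highest band of the CD4-Cre library, and 13045 and 6337 in the F/F library; its part in these levels was not tested.

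Slpi was highest in the middle. It had 586, 1496, 2546, 2073 and 1207 CPM in the 5 CD4-Cre bands, and 541, 1685, 2484, 1829 and 1291 in the F/F bands. Ccdc88a was low at high shares, with 346 and 343 in the 35 to 50% band, and 177 and 134 above 70%. Ly6d had its lowest values in the 35 to 50% band, 1396 and 1399, and its highest above 70%, 2880 and 2280. Eaf2 stayed between 615 and 743 in CD4-Cre cells and between 579 and 739 in F/F cells. Around the 20% limit, cells with 20 to 25% immunoglobulin UMIs had 314 Slpi CPM in the CD4-Cre and 349 in the F/F library, and cells just outside, at 15 to 20%, had 214 and 118. For Prg2 the values were 32.2 and 38.2 just inside and 18.7 and 25.6 just outside.

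**Figure D3:**
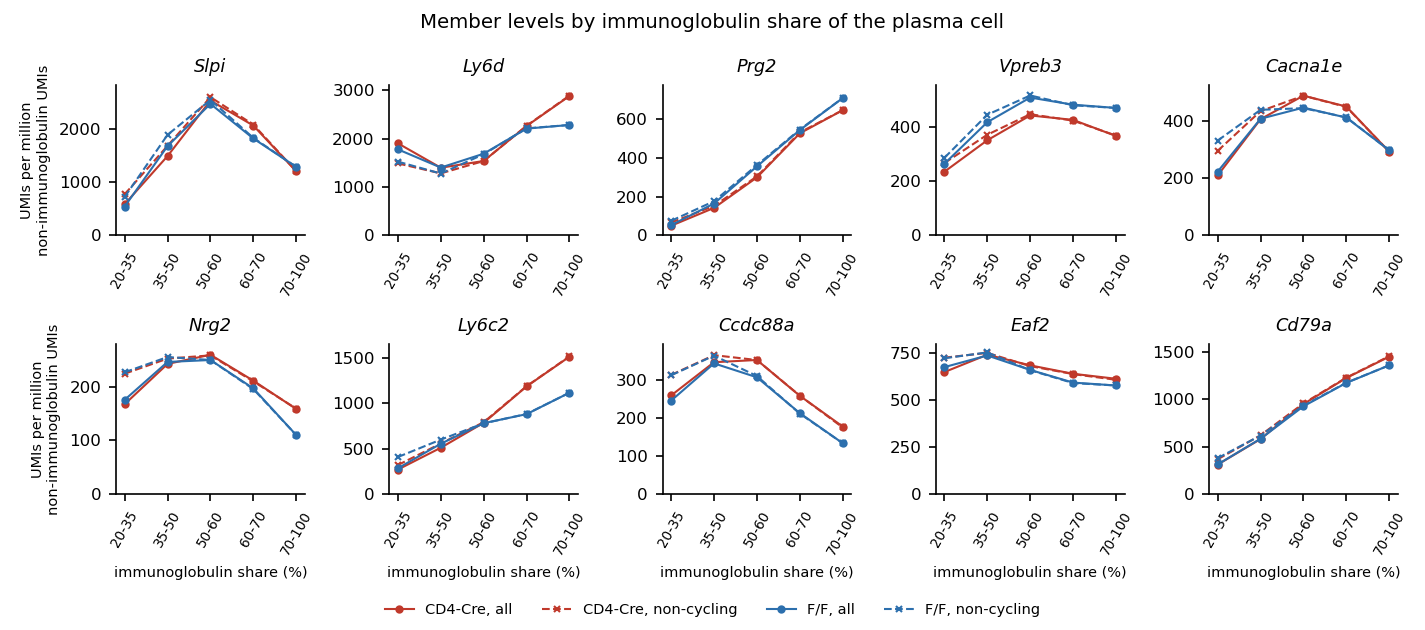
Level of each gene (CPM, UMIs per 1000000 UMIs outside immunoglobulin genes, linear axes from 0) in 5 bands of the immunoglobulin share, for all plasma cells (circles, solid lines) and non-cycling ones (crosses, broken lines) of both libraries. Prg2, Cd79a and Ly6c2 climb through all 5 bands, and Slpi peaks at 50 to 60%, at 2546 in CD4-Cre and 2484 in F/F cells.

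Between IgG and IgA plasma cells 3 of the 10 genes were past 1.5-fold, close to the share over all genes, 28.8% of 12630. There were 96 IgG and 7629 IgA cells in the CD4-Cre library, and 124 IgG and 8708 IgA cells in the F/F library. Nrg2 was lower, at 0.264 times the IgA level in the CD4-Cre library (55 UMIs in IgG cells; 227 CPM in IgA cells) and 0.358 times in the F/F library (79.9 CPM in IgG and 224 in IgA cells). It was held by 11.01% of thinned IgG and 26.6% of IgA cells, a ratio of levels of 0.320 (0.273 to 0.373). Slpi was lower too, at 946 and 1728 in the CD4-Cre library and 743 and 1669 in the F/F library, a ratio of 0.485 (0.464 to 0.508).

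Vpreb3 was higher in IgG cells, with 661 CPM in IgG and 363 in IgA cells of the CD4-Cre library and 630 and 413 in the F/F library. The ratio was 1.65 (1.56 to 1.73), and 50% of IgG and 39.1% of IgA cells held it. Without the 5 highest cells on each side its log2 ratio was 0.56, just short of 1.5-fold, and that of Prg2 -1.28. The 5 cells are a larger share of 220 IgG than of 16337 IgA cells, so leaving them out by itself tends to lower these ratios. IgG cells were more often cycling, at 27.1% (18.5 to 37.1%) in the CD4-Cre and 38.7% (30.1 to 47.9%) in the F/F library, against 11.4% and 11.7% of IgA cells. Among non-cycling cells alone, the log2 ratio of IgG over IgA cells was -1.65 for Nrg2, -0.80 for Slpi, 1.055 for Vpreb3 and 1.03 for Cd79a, so there 4 genes were past 1.5-fold.

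A few IgG differences did not hold in both libraries. In the F/F library alone 5 of the 10 genes were past 1.5-fold, where 30.9% of 11446 genes were, and in the CD4-Cre library 4, where 30.7% of 11139 were. Prg2 had 314 CPM in IgG and 248 in IgA cells of the CD4-Cre library, and 97.1 and 258 in the F/F library, opposite directions. Ly6d had 2113 and 1715 in the CD4-Cre library, and 1223 and 1710 in the F/F library. Cd79a had 1453 and 755 in the CD4-Cre library, and 767 and 710 in the F/F library. For Cd79a the share of cells was 65.3% and 64.9% in the CD4-Cre library, so the higher level went with more UMIs in the cells that held it. Without the 5 highest cells on each side the log2 ratio over both libraries was 0.15, a step that takes a larger share of the IgG cells.

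IgM plasma cells numbered 21 in the CD4-Cre and 11 in the F/F library. Of the 10 genes, 7 were past 1.5-fold against IgA cells, and so were 52.4% of 12599 genes. Slpi was lower in both, with 716 CPM in IgM and 1728 in IgA cells of the CD4-Cre library and 291 and 1669 in the F/F library. Cd79a was higher, at 1456 and 755 in the CD4-Cre and 2016 and 710 in the F/F library. Cd79a was held by 65.6% of IgM and 64.3% of IgA cells, and without the 5 highest cells its log2 ratio was 0.59. Ly6d and Vpreb3 were higher at ratios of 1.78 and 1.77, and without the 5 highest IgM and IgA cells their log2 ratios were -0.018 and -0.33. Leaving out 5 cells takes a far larger share of 32 IgM than of 16337 IgA cells. That by itself tends to lower these ratios, so the values cannot show whether the differences rest on a few cells.

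By light chain, 1 of the 10 genes passed 1.5-fold, and 10.7% of 12633 genes did. Ly6c2 had 1316 CPM in 284 lambda and 657 in 7462 kappa cells of the CD4-Cre library, and 993 in 333 lambda and 593 in 8510 kappa cells of the F/F library. The ratio was 1.84 (1.79 to 1.88), and 50.7% of lambda and 39.4% of kappa cells held it. The related Ly6k and Ly6i stood with it, at 2.08 (1.96 to 2.22) and 1.64 (1.36 to 1.97). Slpi had 856 in lambda and 1751 in kappa cells of the CD4-Cre library, past 1.5-fold there as was Ly6c2, where 14.4% of 11143 genes were. In the F/F library it had 1621 and 1653.

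**Figure D4:**
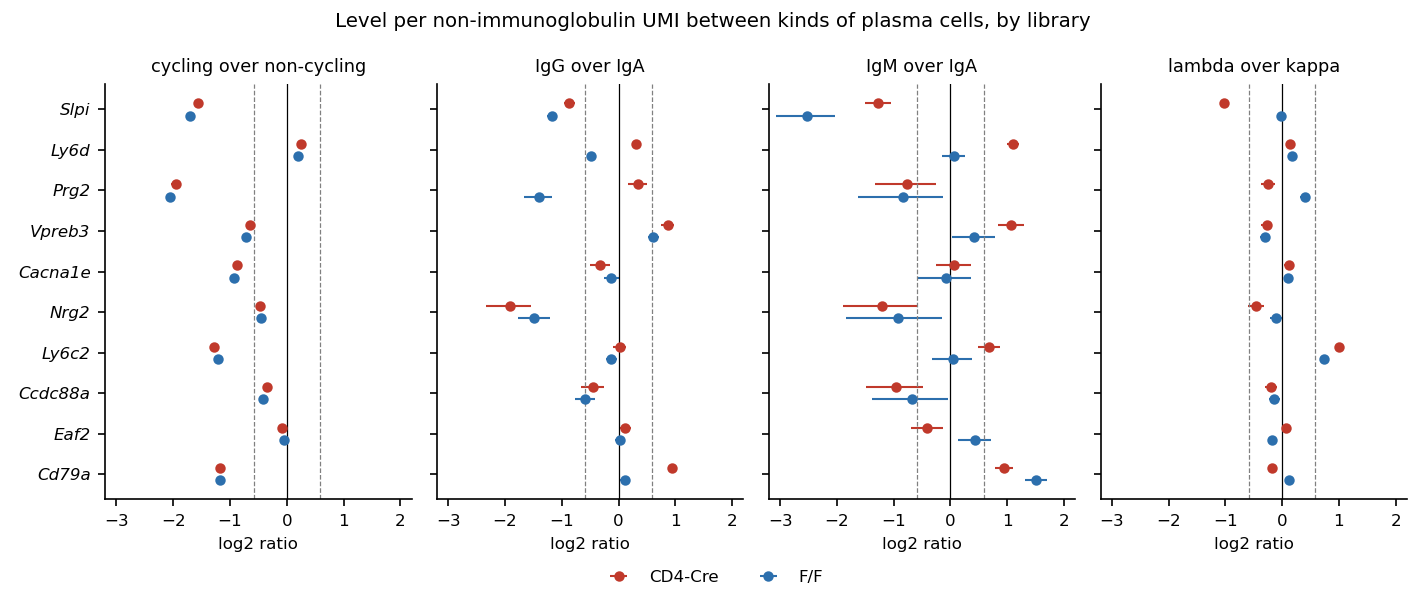
Log2 ratio of each gene's level between kinds of plasma cells, CD4-Cre above F/F, with exact 95% intervals for counting error; broken lines mark 1.5-fold. In cycling cells the libraries lie together, with Prg2 and Slpi furthest to the left, while in the IgG panel Prg2 and Ly6d lie on opposite sides of 0.

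Between genotypes none of the 10 genes was past 1.5-fold, and 3.12% of 12633 genes were. The ratio of CD4-Cre over F/F plasma cells ran from 0.882 (0.868 to 0.897) for Vpreb3 to 1.12 (1.11 to 1.14) for Ly6c2. The median log2 ratio was 0.04 over the 10 genes and 0.03 over all genes. Slpi stood at 1.04, Ly6d at 1.01, Prg2 at 0.976, Cacna1e at 1.059, Nrg2 at 1.02, Ccdc88a at 1.08, Eaf2 at 1.01 and Cd79a at 1.08. In IgA cells, cycling cells and non-cycling cells taken alone none was past 1.5-fold either, where 3.1%, 2.47% and 3.18% of genes were. Among IgG cells 3 were higher, against 3.44% of 2879 genes: Prg2 at 3.24 (2.63 to 3.999), Cd79a at 1.89 (1.75 to 2.05) and Ly6d at 1.73 (1.62 to 1.84), all higher in CD4-Cre. These values rest on 96 and 124 cells of 1 pool each, of which 27.1% and 38.7% were cycling. Over all plasma cells, cycling cells had less Prg2 and Cd79a and more Ly6d. The part of cycling in the IgG values was not tested. Among IgM cells, 21 in CD4-Cre and 11 in F/F, 4 of the 7 genes with enough UMIs were past 1.5-fold, where 17% of 394 genes were: Slpi at 2.47, Ly6d at 2.08 and Ly6c2 at 1.75 were higher, and Eaf2 at 0.565 was lower. Leaving out cells with at least 0.1% pancreatic RNA, 1 CD4-Cre and 956 F/F cells, none of the 10 was past 1.5-fold over all plasma cells. No such step was run for gastric RNA.

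The genes whose levels ran most alike across plasma cells are named as a description, within each library, over 7746 CD4-Cre and 8843 F/F cells. These cells were not thinned, so depth differs between them, and its part in the correlations was not tested. For Cd79a, Prg2 and Slpi the first was Jchain, with a mean Pearson r over the libraries of 0.63, 0.48 and 0.38. Cd74, the invariant chain of antigen presentation, came next for Cd79a at 0.45, and for Prg2 it was Cd79a at 0.36. Jchain levels were 142589 CPM in CD4-Cre cells with Prg2 and 96409 in those without, and 134381 and 89923 in F/F cells. For Vpreb3 the first was Chchd10 at 0.34. Chchd10 ends 5.31 kb before the span of Vpreb3 begins, on the same strand, and the RefSeq start of Vpreb3 lies further away. Cacna1e ran with Msi2 at 0.41, Malat1 at 0.40 and Fndc3a at 0.39, and Nrg2 and Ccdc88a both with Atxn1 and Arhgap15, at 0.30 to 0.32. Ly6d ran with Rack1, Eef1b2 and Gapdh at 0.24 to 0.28, Ly6c2 with B2m at 0.27, and Eaf2 with Txndc5, an endoplasmic reticulum oxidoreductase, at 0.29.

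Genes related to the 10 by function are counted against the 25.2% of all genes past 1.5-fold between cycling and non-cycling cells, and the 12.4% that were lower. Among 19 plasma cell identity and survival genes, 7 were lower and 0 higher in cycling cells past 1.5-fold, among them Jchain at 0.403, Zbtb20 at 0.565 and the plasma cell proteoglycan Sdc1 at 0.585. Of 13 measured B cell surface and antigen presentation genes, 4 were higher, among them Pax5 at 4.61, Ms4a1 at 2.91 and Bank1 at 1.61, and Cd74 was lower at 0.504. In the Ly6 family 6 of 9 measured genes, Ly6c2 itself included, were lower in cycling cells, with Ly6c1 at 0.167 (0.0531 to 0.403), Ly6i at 0.285, Cd59a at 0.420 and Ly6c2 at 0.422. Of 7 measured calcium channel subunits, Cacna1e itself included, Cacna1d at 0.453, Cacna1e at 0.532 and Cacna1s at 0.593 were lower, and Cacna1b was higher at 2.26. Among 8 measured partners of Eaf2 none was past 1.5-fold, with Ell2 at 278 CPM in CD4-Cre and 299 in F/F plasma cells.

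Receptors and partners were present to very different degrees. Cd79b, the partner chain of Cd79a, was held by 87.6% of CD4-Cre and 86.8% of F/F plasma cells. Vpreb1, a surrogate light chain gene, had 48 and 56 UMIs, Vpreb2 had 0 in both, and Igll1 had 0 and 1. The ErbB receptors of neuregulins were sparse, with Erbb3 at 129 and 131 UMIs, Erbb4 at 6 and 11 and Erbb2 at 1 and 1. Of the family of Slpi, Wfdc17 had 129 and 153 UMIs, and Wfdc12 had 1 and 0. Girdin's relatives Ccdc88c and Ccdc88b were held by 35.98% and 35.2%, and by 8.77% and 7.86%, of cells.

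Levels also differed between cells that used different antibody variable segments, a comparison chosen after seeing the data. A kappa segment was assigned in 71.1% of CD4-Cre and 71.5% of F/F plasma cells, and 12 segments had at least 100 cells in each library. Across them Slpi ran from 485 CPM (Igkv1-117) to 3200 (Igkv14-111) in the CD4-Cre library, and from 1082 (Igkv1-117) to 4396 (Igkv8-30) in the F/F library. The order of the 12 segments was alike in both libraries for Slpi, with a Spearman rho of 0.83 given as a description. Igkv10-96 had the highest Nrg2 and Ccdc88a of the 12 in each library, with 305 and 417 CPM in 540 CD4-Cre cells and 277 and 411 in 968 F/F cells. The smallest spread between segments was 1.40-fold for Cacna1e in CD4-Cre cells and 1.28-fold for Eaf2 in F/F cells. The order for Ly6d was not alike in the libraries, with a rho of -0.15. Over 16 heavy segments the rho was 0.59 for Ly6d and 0.50 for Slpi, but -0.26 for Cacna1e and -0.29 for Cd79a. It was positive for each of the other genes, as low as 0.26 for Prg2.

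Slpi and Ccdc88a ranged more widely between groups of cells that shared both a heavy and a kappa segment, which hold fewer cells each. In the F/F library, 172 cells with Ighv3-3 and Igkv10-96 had 5207 Slpi CPM and 604 of Ccdc88a, but 780 of Ly6d. The 57 F/F cells with Ighv1-18 and Igkv17-121, of which 0% were cycling, had 125 of Slpi and 21.1 of Ccdc88a, but 2785 of Ly6d and 747 of Prg2. Of these pairs, 3 had at least 40 cells in each library. Ighv1-69 with Igkv10-96 occurred in 163 CD4-Cre and 61 F/F cells, with Slpi at 3600 and 2825, Ccdc88a at 477 and 500 and Ly6d at 741 and 843. Ighv1-9 with Igkv8-21, in 57 CD4-Cre and 60 F/F cells, had Slpi at 629 and 1184 and Prg2 at 369 and 194. Ighv3-6 with Igkv12-46, in 44 CD4-Cre and 47 F/F cells, had Slpi at 794 and 527 and Prg2 at 250.3 and 112. In the CD4-Cre library, 70 cells with Ighv1-26 and Igkv10-94 had 1790 CPM of Ly6c2. Variable segments have near-identical copies, and how reads that match several of them were counted is not known. Clones were not called, and the mouse of a cell is unknown, so clone, mouse and segment cannot be told apart.

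**Figure D5:**
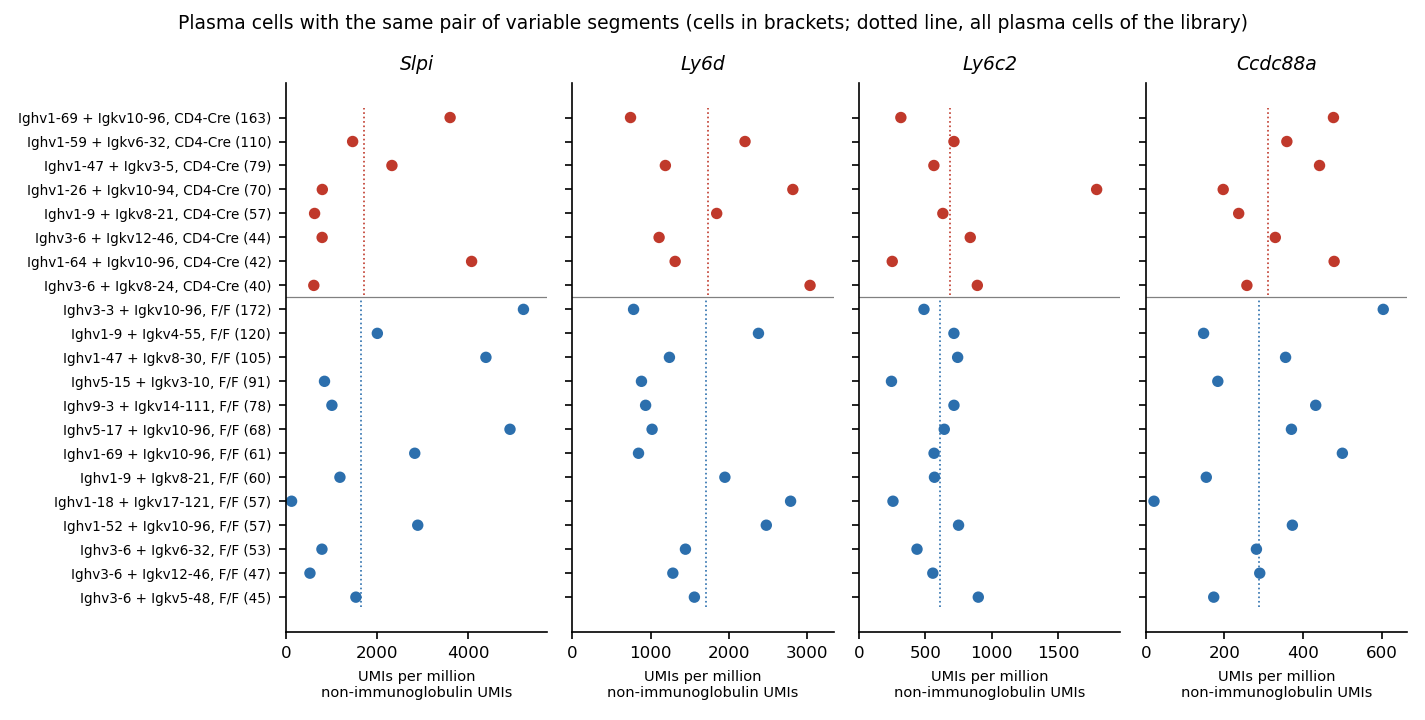
Level of Slpi, Ly6d, Ly6c2 and Ccdc88a (CPM, UMIs per 1000000 UMIs outside immunoglobulin genes) in plasma cells that share a heavy and a kappa segment, at least 40 cells each, CD4-Cre above F/F; dotted lines give all plasma cells of the library. Slpi runs from 125 to 5207, both in F/F cells, and Ccdc88a from 21.1 to 604.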

How the data were processed

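Droplet libraries (10x Genomics, 3′ gene expression, aimed at 50000 read pairs per cell) were deposited by the authors as whole UMI counts per gene and barcode, 32285 genes by 2270301 barcodes (CD4-Cre) and 2307624 barcodes (F/F), unfiltered. Counts were made with Cell Ranger 7.2.0, per the file headers, on mm10 (GRCm38), per the submitters' processing notes, which also name Seurat 5.0.1; handling of introns and strand is not given in the sources used here. Totals were 200580083 UMIs (CD4-Cre) and 222838658 UMIs (F/F). Kept barcodes had 1000 or more UMIs and 500 or more genes, with mitochondrial RNA up to 10%; doublets were not called, and cells with markers of another type were counted and left out as an alternative. Plasma cells had at least 20% of UMIs on 392 immunoglobulin genes (Jchain not counted). The isotype or light chain was the class with over 50% of at least 10 constant region UMIs. Levels are summed UMIs per 1000000 UMIs outside immunoglobulin genes, with exact (Clopper-Pearson) 95% intervals for counting error. A gene was called past 1.5-fold with at least 100 UMIs over both groups. Joint detection used cells thinned to 1500 UMIs outside immunoglobulin genes and Mantel-Haenszel odds ratios over libraries. With 1 library per genotype no test was run. The 10 genes, the gene lists and the limits were chosen with earlier results of these data known; the segment, Malat1 and immunoglobulin band comparisons were added after seeing the data. Besides the 10 genes, the text names for each the 3 genes of highest mean correlation, and from each list up to 4 with the largest ratio. Ratio intervals, thinning and odds ratios were tested on simulated data. Tools were Python 3.11.15, numpy 2.4.6, scipy 1.17.1, pandas 2.3.3 and matplotlib 3.10.9.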

Additional observations from a re-analysis of the deposited data

Results flagged for a closer look

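In 6 cases the libraries lay on opposite sides of no difference, each with an interval clear of it; the difference between the libraries itself was not tested, and chance over pools of 3 mice cannot be told apart from genotype. For IgG over IgA plasma cells, the log2 ratio of Prg2 was 0.34 in the CD4-Cre library and -1.41 in the F/F library, and that of Ly6d 0.30 and -0.48. For IgM over IgA plasma cells, Eaf2 stood at -0.41 in the CD4-Cre library and 0.43 in the F/F library. For lambda over kappa plasma cells, Prg2 stood at -0.25 and 0.41, Eaf2 at 0.07 and -0.19, and Cd79a at -0.17 and 0.12.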

How the results depend on the processing

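No paired analysis was possible because each genotype is 1 library. Of 650 recomputed log2 ratios, 602 kept the sign of the value reported and 3 called ones reversed. Apart from those 3, 248 of the 650 lay outside the counting interval of the value reported. Among these were 63 of 130 for cycling over non-cycling cells and 65 of 140 for IgG over IgA cells. The intervals therefore do not cover the choice of processing. Of 630 recomputed odds ratios, 597 stayed on the same side of 1. In IgM over IgA cells without the 5 highest cells, Ly6d went to -0.018 and Vpreb3 to -0.33. Leaving out 5 cells on each side takes a larger share of the smaller group, which by itself tends to lower that group's level. In cycling over non-cycling cells with an immunoglobulin limit of 50%, Cacna1e went to 0.12 and 2 genes in place of 6 were past 1.5-fold; that limit leaves 166 cycling cells. For IgG over IgA cells the count was 5 in place of 3 with an immunoglobulin limit of 10%, with an isotype share of at least 90%, and in the F/F library alone. For lambda over kappa cells it was 2 in place of 1 with levels over all UMIs, without the 5 highest cells, and in the CD4-Cre library alone. Joint pairs numbered 2 in place of 0 with an immunoglobulin limit of 10%, with Jchain counted as immunoglobulin and with thinning to 3000 UMIs; each time they were Slpi with Cd79a and Prg2 with Cd79a. The causes were not tested. Between genotypes the count stayed 0 under the 11 alternatives run. The IgM values rest on 32 cells.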
